A study of Mus musculus with 7 samples.

Results

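The genes described here mark the cells that build the small blood vessels of the brain. They are 20 genes of endothelial cells, which line the vessel, and 11 genes of mural cells, which sit on its outer face, and they were found by symbol among the 55401 gene identifiers of a count table of microglia from the mouse dorsal hippocampus. All 31 were matched, all 31 had more than 3 counts in every library, and all 31 passed the filter on low counts. The lowest count of any of them was 5, for Tagln in EYFP 1.

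The table holds 7 libraries from C57BL/6 mice aged 6 to 8 weeks, described in the series title as adult males. All of them carried AAV-RAM-Cre, a virus whose promoter expresses Cre in neurons activated by experience, injected into the dorsal dentate gyrus with a virus that Cre switches on. That second virus was AAV-Dio-EYFP, which carries a yellow fluorescent protein, in the 4 EYFP libraries and AAV-Dio-Atg7-Flag, which carries the autophagy enzyme Atg7 with a Flag tag, in the 3 ATG7 libraries. The comparison therefore asks how cells collected beside neurons carrying added Atg7 differ from those beside neurons carrying EYFP, and Cre and a reporter or transgene virus are present in both groups. Perfused tissue was broken up enzymatically, debris was removed and cells were enriched with magnetic beads against CD11b, a surface protein of microglia and other myeloid cells. Endothelial and mural cells do not carry CD11b, so their transcripts were read in a preparation selected for another cell type.

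In the brain, endothelial cells are sealed to one another by tight junctions and carry transporters that decide what passes from blood to tissue, an arrangement known as the blood-brain barrier. Pericytes, the mural cells of capillaries, share a basement membrane with the endothelium and are recruited by platelet-derived growth factor acting on Pdgfrb. Smooth muscle cells, the mural cells of arteries and arterioles, carry contractile proteins such as Acta2. Vascular endothelial growth factor acts on endothelial cells through Kdr and is held back by Flt1, and angiopoietins act through Tek, with Tie1 as its partner.

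The promoters of 4 members that stand for the roles described here are shown with matches to 2 motifs, ETS and CArG. Windows for 22 of the 31 genes were taken from RefSeq's mouse promoter table (GRCm38.p6). The other members, Pdgfrb among them, were not searched, and the counts of genes below are out of those searched. In each window the 250 bases before the start were searched on both strands for CCGGAA, a long form of the ETS factor motif. Its shorter core, GGAA, was not searched and is not in capitals, so a window without a match can still hold it, as that of Flt1 does. The same bases were also searched for the CArG box bound by serum response factor, with at most 1 mismatch, allowed only between its outer CC and GG. The motifs do not overlap in any window printed here. Shown 5′ to 3′ on the gene's strand, with matches in capitals, are the 2 receptors of vascular endothelial growth factor, Kdr (chr5:75978456-75978705, minus strand) and Flt1 (chr5:147726012-147726261, minus strand), the smooth muscle actin gene Acta2 (chr19:34255374-34255623, minus strand) and the pericyte gene Rgs5 (chr1:169655251-169655500, plus strand). Each window ends at the base before RefSeq's start.
Kdr: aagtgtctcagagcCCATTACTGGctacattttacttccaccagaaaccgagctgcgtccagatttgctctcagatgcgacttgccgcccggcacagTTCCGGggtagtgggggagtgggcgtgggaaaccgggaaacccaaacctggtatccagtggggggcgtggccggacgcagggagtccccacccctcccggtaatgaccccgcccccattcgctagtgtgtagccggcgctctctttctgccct
Flt1: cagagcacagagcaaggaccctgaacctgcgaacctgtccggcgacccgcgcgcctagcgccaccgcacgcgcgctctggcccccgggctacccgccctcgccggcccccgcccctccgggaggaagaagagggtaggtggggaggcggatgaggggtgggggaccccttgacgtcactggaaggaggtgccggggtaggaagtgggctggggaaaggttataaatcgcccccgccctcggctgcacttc
Acta2: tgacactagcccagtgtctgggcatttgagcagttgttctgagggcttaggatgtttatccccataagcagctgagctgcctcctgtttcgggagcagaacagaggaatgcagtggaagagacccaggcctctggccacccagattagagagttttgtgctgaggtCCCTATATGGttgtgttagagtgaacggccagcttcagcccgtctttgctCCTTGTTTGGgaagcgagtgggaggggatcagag
Rgs5: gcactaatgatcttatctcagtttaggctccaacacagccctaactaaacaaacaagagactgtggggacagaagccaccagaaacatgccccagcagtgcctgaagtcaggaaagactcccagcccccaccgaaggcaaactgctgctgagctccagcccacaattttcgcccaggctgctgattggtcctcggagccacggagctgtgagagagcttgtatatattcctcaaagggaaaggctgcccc
CCGGAA was found in 12% of all 32851 windows of this length, and in 1 of 14 endothelial genes (Kdr, where the reverse complement is in capitals after the first match) and 0 of 8 mural genes. The CArG box with up to 1 mismatch was found in 8.59% of all windows. It was found in 4 of 14 endothelial genes (Kdr, Eng, Egfl7 and Slco1a4) and in 1 of 8 mural genes, Acta2, which held 2 matches. Egfl7, Erg and Ly6c1 had more than 1 window each, so counts of genes and the share of windows are not on an equal footing. These are letters in a window and carry no measurement of binding.

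The libraries held 35934210 to 55217119 counts each. One library went against the labels: EYFP 3 had 42330 counts of Xist, the RNA of the inactive X chromosome of females, against 7 to 22 in the other 6, and its summed level of 4 Y-linked genes was 56.3 CPM against 245 to 316. Results are therefore also given without it. Atg7 itself was at 35.5 ± 1.68 CPM (SD over the 4 EYFP libraries; CPM are counts scaled to library size) against 34.9 ± 2.76 (SD over the 3 ATG7 libraries), a difference smaller than either SD; the labels place the added gene in neurons, which the beads do not select. The 10 microglial markers made up 2.24% to 2.76% of all counts, the 20 endothelial genes 0.119% to 0.216%, and the 11 mural genes 0.0247% to 0.0434%. The 9 choroid plexus markers made up 4.65% to 7.21%.

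Per kilobase of exon, a scale on which genes can be set beside each other, the most abundant endothelial gene was Cldn5, the claudin of brain tight junctions, at 79.3 ± 31.6 CPM per kilobase (SD over 7 libraries). Slc2a1, the glucose transporter of the barrier, followed at 76.8 ± 11.5, and these neighbours do not differ beyond their spread. Next came Ly6c1 at 54.1 ± 14.1, Ly6a at 48.7 ± 15.5 and Eng at 46.4 ± 5.77, which again lay within their spread of each other. Ly6c1 and Ly6a encode small membrane-anchored surface proteins and Eng a co-receptor for transforming growth factor beta. Vtn, the pericyte-derived matrix protein vitronectin, led the mural genes at 36.9 ± 7.54 and Rgs5, a regulator of G protein signalling, followed at 32.2 ± 7.60. Acta2 stood at 21.1 ± 3.22, while Tagln, its partner in smooth muscle, stood at 0.191 ± 0.106. Both contractile genes are thus in the list, at levels that differ widely.

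**Figure D1:**
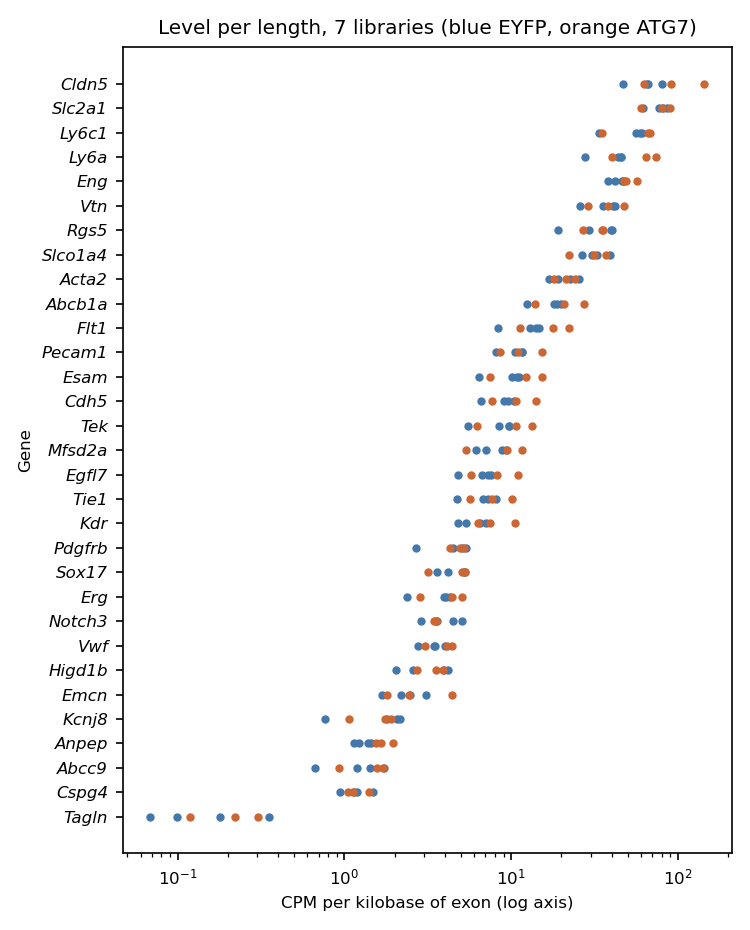
Level per length of the 31 genes on a log axis, in CPM per kilobase of exon, in each of the 7 libraries. Cldn5 at 79.3 and Slc2a1 at 76.8 lead, and Tagln at 0.191 is the lowest.

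The first question was whether the level of vessel genes differed between the groups as a class. The mean log2 CPM of the 20 endothelial genes was 5.85, 5.88, 5.76 and 5.27 in the EYFP libraries, in replicate order, against 5.99, 5.43 and 6.29 in the ATG7 libraries. The groups overlapped: EYFP 4 was the lowest library and ATG7 2 the next, while ATG7 3 was the highest. The group means were 5.69 ± 0.29 (SD, n = 4) and 5.90 ± 0.44 (SD, n = 3), a difference of 0.22 that was smaller than either SD. It was 0.02 without ATG7 3, 0.08 without EYFP 4, 0.45 without ATG7 2 and 0.24 without EYFP 3. In bulk samples, fewer cells of a type and less RNA per cell cannot be told apart.

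For the mural genes the groups overlapped as well. Their mean log2 CPM was 3.74, 4.0, 3.62 and 3.08 in the EYFP libraries against 3.89, 3.53 and 3.77 in the ATG7 libraries. All 3 ATG7 libraries lay inside the EYFP range, and EYFP 4 was again the lowest. The group means were 3.61 ± 0.38 and 3.73 ± 0.19, a difference of 0.12, which was -0.06 without EYFP 4 and 0.12 without EYFP 3. In the mural mean minus the endothelial mean, a level shared by all vessel genes cancels. Each gene weighs alike in this difference, Tagln at 5 to 32 counts included, and some members are also found on other cells. It therefore need not give the composition of the wall. It ran from -2.18 to -1.88 in EYFP and from -2.52 to -1.91 in ATG7, so these groups overlapped too. ATG7 3 had the lowest value, being the library with the highest endothelial but not the highest mural level.

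Single genes followed the library more than the group. ATG7 3 held the highest CPM of 17 of the 20 endothelial genes, whereas it was the highest library for 16.2% of all 19199 genes tested. EYFP 4 held the lowest of 16 of 20, against 12.7% of all genes. The exceptions at the top were Slco1a4, highest in EYFP 2, and Slc2a1 and Vwf, highest in ATG7 1. At the bottom, Slco1a4, Slc2a1, Mfsd2a and Sox17 were lowest in ATG7 2. Of these, Slco1a4, Slc2a1 and Mfsd2a are 3 of the 4 barrier transporters in the list. The median SD of log2 CPM over the 7 libraries was 0.38 for endothelial genes and 0.20 for all genes. Taken relative to the mean of the other endothelial genes in the same library, it was 0.17 for endothelial genes and 0.40 for all genes. The members were chosen as genes of 1 cell type, so a shared spread is described here and not tested.

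Among mural genes the order of the libraries was another one. EYFP 4 held the lowest CPM of all 9 pericyte genes, but the highest was EYFP 2 for 4 of them (Pdgfrb, Rgs5, Cspg4 and Notch3), EYFP 1 for 3 (Kcnj8, Abcc9 and Higd1b) and ATG7 3 for 2 (Vtn and Anpep). Both contractile genes, Acta2 and Tagln, were lowest in EYFP 1 and highest in EYFP 2. EYFP 1 was thus near the top for pericyte genes, with a mean log2 CPM of 4.26. It was lowest for the 2 contractile genes, at 1.37. That mean includes Tagln at 5 counts in EYFP 1, while Acta2 stood at 36.8 CPM there and at 39.9 in ATG7 3. Of 20 other mural genes described further below, EYFP 1 was the lowest library for 2 and EYFP 4 for 13.

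**Figure D2:**
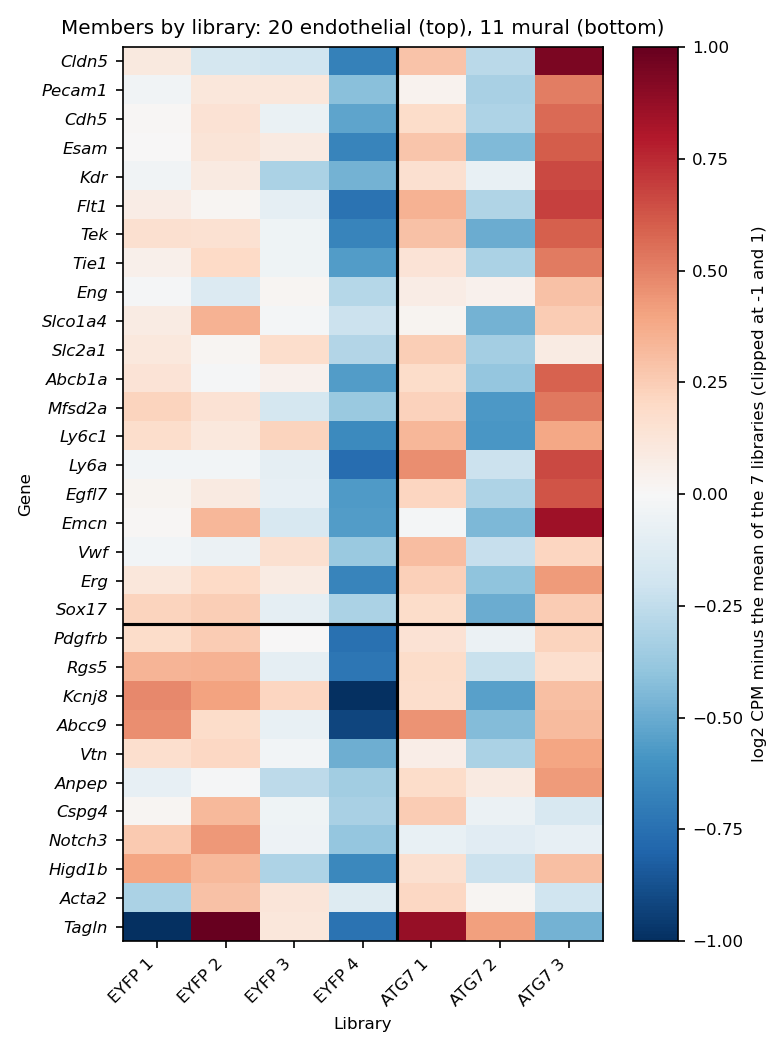
The 31 genes by library, as log2 CPM relative to each gene's mean over the 7 libraries, with 20 endothelial genes above the black line and 11 mural genes below it. The ATG7 3 column is the highest for 17 of 20 endothelial genes and the EYFP 4 column the lowest for 16, and for 9 of 9 pericyte genes.

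Across all genes, 145 of 19199 differed between ATG7 and EYFP in edgeR's quasi-likelihood test with Benjamini-Hochberg adjustment at 0.05 (0.755%), 132 of them higher and 13 lower in ATG7. Of the members, 0 of 20 endothelial and 0 of 11 mural genes passed, where 0.688% of all genes were called higher and 0.0677% lower. DESeq2 and limma-voom also called 0 of 31. At an unadjusted p under 0.05, edgeR gave 2 of 20 endothelial genes and 1 of 11 mural genes, all 3 higher, where 12% of all genes stand below that value and 6.27% are higher in ATG7 as well. A count of 0 of 31 is near a background of 0.755%. In direction, 18 of 20 endothelial genes were higher in ATG7 with a median log2 fold change of 0.25, and 9 of 11 mural genes with a median of 0.08, against 49.2% and a median of -0.00365 for all genes. These genes share their libraries: the endothelial median was 0.44 without ATG7 2, 0.12 without EYFP 4 and -0.000419 without ATG7 3. The mural median was -0.05 without EYFP 4 and -0.04 without ATG7 1. Without EYFP 3, 0 of 31 were called among 164 genes, with medians of 0.26 and 0.04. The number of genes called over all was 277 without EYFP 1, 94 without EYFP 2, 30 without EYFP 4, 28 without ATG7 2 and 30 without ATG7 3.

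**Figure D3:**
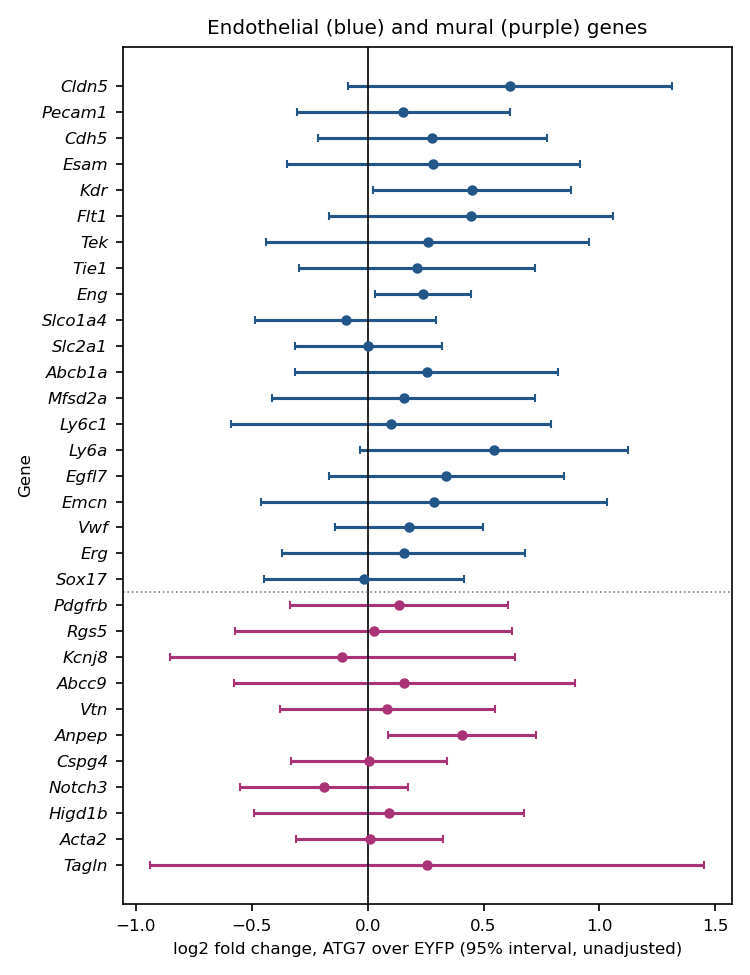
Log2 fold change of each gene, ATG7 over EYFP, with its unadjusted 95% interval from edgeR. Most points lie right of 0, and 3 intervals exclude it, those of Eng, Kdr and Anpep, none of which passed the adjusted threshold.

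The 4 junction and adhesion genes were all higher in ATG7 on average, with overlapping groups. Cldn5 was at 113, 94.1, 92.1 and 66.5 CPM in EYFP, listed by replicate, and at 129, 87.9 and 203 in ATG7. ATG7 2 lay below 3 of the EYFP libraries, and ATG7 3 was 3.06 times EYFP 4, the widest range of any endothelial gene. Its log2 fold change was 0.61 (SE 0.30, adjusted p = 0.487 by edgeR) and was 0.24 without ATG7 3. Pecam1, an adhesion molecule at cell contacts, had a log2 fold change of 0.15, Cdh5, the cadherin of adherens junctions, 0.28, and Esam, a second tight junction protein, 0.28. In these 3 genes the lowest library was EYFP 4 and the highest ATG7 3.

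The 5 growth factor receptors were also all higher on average. Kdr was at 58.7, 64.0, 48.2 and 43.3 CPM in EYFP and at 67.3, 57.1 and 95.1 in ATG7. ATG7 2 fell inside the EYFP range and the other ATG7 libraries above it. The log2 fold change was 0.45 (SE 0.19, adjusted p = 0.390 by edgeR) and 0.40 without EYFP 3 (SE 0.20), where Kdr was no longer under an unadjusted 0.05. Eng was at 186, 170, 189 and 153 CPM in EYFP and at 197, 193 and 228 in ATG7. It was the endothelial gene whose groups did not overlap in CPM, as was the case for 11.2% of all genes, 6.33% of all with ATG7 higher. Its log2 fold change was small, 0.24, but its spread was too (SE 0.09, adjusted p = 0.342 by edgeR). Eng did not follow the level of the other endothelial genes. Its SD of log2 CPM was 0.18 as measured and 0.25 relative to their mean, where the endothelial medians were 0.38 and 0.17. Its relative values overlapped between the groups and were highest in EYFP 4 (2.10) and ATG7 2 (2.27). The part of other cells in the Eng values was not tested. Flt1, the decoy and co-receptor of the Kdr ligand, was at 197, 190, 176 and 113 CPM in EYFP and 239, 152 and 300 in ATG7, with overlapping groups and a log2 fold change of 0.45. Tek and Tie1 had log2 fold changes of 0.26 and 0.21. The ratio of Kdr to Flt1 CPM was 0.323 ± 0.0485 over the EYFP libraries and 0.325 ± 0.0472 over the ATG7 libraries (SD), with overlapping groups.

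Of the 4 transporters of the barrier, 3 were higher on average and Slco1a4 lower. Slc2a1 was at 287, 270, 302 and 217 CPM in EYFP and at 315, 211 and 282 in ATG7, a log2 fold change of 0.00 with a 95% interval from -0.32 to 0.32. That interval still holds changes of about the size seen for Eng. Slco1a4, an organic anion transporter, was at 209, 251, 195 and 170 CPM in EYFP and at 201, 142 and 236 in ATG7, a log2 fold change of -0.10. Abcb1a, the drug efflux pump P-glycoprotein, had a log2 fold change of 0.26, and Mfsd2a, the carrier of lysophospholipids, 0.15. All 4 had overlapping groups. Of Abcb1a's 50-base stretches, 17.6% also occur in other genes, most of them in its paralog Abcb1b, so its count depends on how shared reads were treated.

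Among the surface and secreted proteins, Ly6a, also called Sca-1 and known to respond to interferon, was at 55.1, 55.1, 52.7 and 33.1 CPM in EYFP and at 77.5, 48.3 and 89.0 in ATG7. EYFP 4 stood apart from the other EYFP libraries, and ATG7 2 lay between it and them. The log2 fold change was 0.55 (SE 0.25, adjusted p = 0.450 by edgeR). Ly6c1, its neighbour on chromosome 15, was at 99.1, 94.2, 102 and 56.5 CPM in EYFP and at 111, 58.5 and 114 in ATG7, with a log2 fold change of 0.10. Both are uncertain at the level of reads, since 19.0% of the 50-base stretches of Ly6a and 32.8% of those of Ly6c1 also occur in other genes, mostly Ly6c1 and Ly6c2. Egfl7, a secreted vessel protein, Emcn, the sialomucin endomucin, and Vwf, the clotting protein of endothelial granules, had log2 fold changes of 0.34, 0.29 and 0.18. The transcription factors Erg and Sox17 had 0.15 and -0.02.

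The mural gene with the smallest p was Anpep, the aminopeptidase CD13 found on pericytes and also on fibroblasts and some myeloid cells. It was at 5.71, 5.99, 5.03 and 4.73 CPM in EYFP and at 6.84, 6.42 and 8.08 in ATG7. The groups did not overlap, as for 11.2% of all genes, and the log2 fold change was 0.41 (SE 0.14, adjusted p = 0.285 by edgeR). Pdgfrb, the receptor for platelet-derived growth factor, was at 27.8, 29.2, 24.6 and 14.6 CPM in EYFP and at 27.1, 23.6 and 28.7 in ATG7. Its log2 fold change was 0.14. Rgs5 was at 180, 182, 134 and 86.3 CPM in EYFP and at 162, 122 and 160 in ATG7. Its log2 fold change was 0.03. In both, EYFP 4 was the lowest library and the ATG7 libraries lay inside the EYFP range.

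The potassium channel subunits Kcnj8 and Abcc9, which form 1 channel in pericytes, had log2 fold changes of -0.11 and 0.16 with wide intervals, from -0.85 to 0.63 for Kcnj8 and from -0.58 to 0.89 for Abcc9. Notch3, the receptor by which endothelial cells instruct mural cells, was at 36.2, 40.8, 29.2 and 23.2 CPM in EYFP and at 28.7, 27.9 and 28.6 in ATG7, a log2 fold change of -0.19. The ATG7 libraries were close together and inside the EYFP range. Vtn, Cspg4 (the proteoglycan NG2, which precursors of oligodendrocytes carry too) and Higd1b had 0.08, 0.01 and 0.09.

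The contractile pair did not differ beyond its spread. Acta2 was at 36.8, 56.0, 49.7 and 41.8 CPM in EYFP and at 52.9, 46.5 and 39.9 in ATG7, a log2 fold change of 0.01 with a 95% interval from -0.31 to 0.33. Tagln rested on 5 to 32 counts a library, and its log2 fold change of 0.26 had an interval from -0.94 to 1.45. Changes of Tagln inside this interval could not be told from no change, and the cause of its wide spread was not tested. The ratio of Acta2 to Pdgfrb was 2.03 ± 0.634 in EYFP and 1.77 ± 0.330 in ATG7, with overlapping groups.

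Ratios between members within a library remove a level that both genes share. Relative to the other genes of the class, the median SD fell from 0.38 to 0.17 for endothelial and from 0.35 to 0.21 for mural genes. Not every member followed its class: the SD rose from 0.18 to 0.25 for Eng and from 0.22 to 0.32 for Acta2. For such members a ratio does not remove the vessel level. Of the 190 pairs of endothelial genes, 41 had ratios whose groups did not overlap (21.6%), and 2 of the 55 pairs of mural genes (3.64%). Over all pairs of genes tested with a count in every library the share was 11.4%, and over the 435 pairs of the 30 other endothelial genes it was 6.44%. Without EYFP 3 the counts were 57 of the 190 endothelial pairs and 2 of the 55 mural pairs. Leaving out a library can only keep or raise such a count. The share over all pairs was not computed without EYFP 3, so the rise cannot be judged. Ly6a took part in the most, with a higher ratio in ATG7 to 13 of the 19 other endothelial genes. Cldn5 and Flt1 had higher ratios to 9 of 19 each. Slco1a4 had lower ratios to 8 of 19, and Sox17 to 5 of 19. Pairs that share a gene are not independent, and these genes were singled out after their values were seen.

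The ratio of Ly6a to Ly6c1 was 0.556, 0.585, 0.516 and 0.587 in EYFP and 0.701, 0.826 and 0.778 in ATG7. All 3 ATG7 libraries stood above all 4 EYFP libraries, also ATG7 2 and EYFP 4, the libraries with the least endothelial RNA. The ratio of Kdr to Pecam1 was 0.827 ± 0.108 in EYFP and 1.01 ± 0.0446 in ATG7, and that of Slco1a4 to Abcb1a 2.21 ± 0.356 and 1.74 ± 0.150, both without overlap. For Cldn5 to Pecam1, at 1.41 ± 0.218 and 1.88 ± 0.244, the groups overlapped. Relative to the mean of the other 19 endothelial genes, 4 of 20 were higher in ATG7 without overlap (Cldn5, Flt1, Ly6a and Egfl7), where 0.865% of all genes were, and 1 of 20 was lower (Slco1a4), where 1.79% were. Members vary less around this mean than other genes, so the 2 shares are not on an equal footing. Of the 30 other endothelial genes, set against the same mean, 0 were higher without overlap and 2 were lower (Ptprb and Ramp2). Of mural genes relative to the mural mean, 0 of 11 stood apart in either direction, against 1.05% of all genes higher and 2.58% lower.

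**Figure D4:**
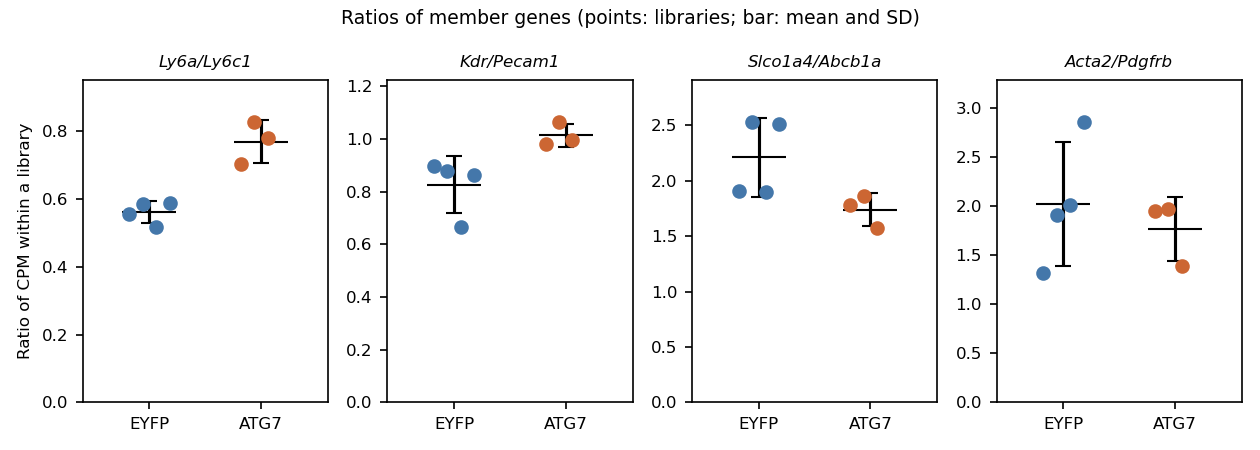
Ratios of CPM between member genes within each library, with points for libraries and bars for mean and SD. The Ly6a to Ly6c1 ratio is 0.561 ± 0.0331 in EYFP and 0.769 ± 0.0628 in ATG7, and its groups do not overlap.

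A further gene of the Ly6 family moved with the group, and its values stand beside those of Ly6a. Ly6e, which like Ly6a is known to respond to interferon, was at 686, 650, 623 and 585 CPM in EYFP and at 812, 942 and 1027 in ATG7. All 3 ATG7 libraries stood above all 4 EYFP libraries, and Ly6e rose from 636 ± 42.6 to 927 ± 108 CPM (log2 fold change 0.54, adjusted p = 0.0316 by edgeR). It was the 1 of 11 tested genes of the family that passed, where 0.688% of all genes were called higher. Of these 11, 7 were higher and 4 lower in ATG7, with log2 fold changes from -0.82 to 1.68. Without overlap, 2 of the 11 were higher and 0 lower, where 6.33% of all genes were higher. Of 7 interferon-responsive genes that endothelial cells and microglia both express, 7 were higher in ATG7. Of these, 6 were called, Ly6e among them, where 0.688% of all genes were called higher. The 7 genes had a median log2 fold change of 0.87. Their summed level was 2768 to 3996 CPM in EYFP and 5494 to 6507 in ATG7. These lists were drawn up with these results known and are not independent evidence of their direction, and the part of interferon in the Ly6a ratio was not tested. In the ratio to Ly6c1, Ly6a also stands beside Ly6c2, whose CPM was 2.95, 4.40, 1.55 and 2.08 in EYFP and 3.02, 6.40 and 13.5 in ATG7.

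Genes of blood cells also varied between libraries. Of 8 blood cell markers, 0 were called, and their summed level was 44.2, 50.5, 59.8 and 24.1 CPM in EYFP and 17.9, 17.8 and 93.5 in ATG7. The order was that of the endothelial mean in part: ATG7 3 was highest in both, but ATG7 1, next to highest for endothelial genes, was close to the lowest for blood genes. Hbb-bs, a haemoglobin chain, was at 1.37, 2.81, 2.22 and 0.172 CPM in EYFP and at 2.22, 0 and 2.30 in ATG7, lowest in the same 2 libraries, EYFP 4 and ATG7 2, as the endothelial mean. Hbb-bt was at 0 counts in both of these. S100a8, a neutrophil gene, was highest in ATG7 3 at 32.2 CPM against 5.38 to 17.8 in the other 6. Of the 9 choroid plexus markers 0 were called, all 9 were lower in ATG7, and their summed level was 55132 to 72712 CPM in EYFP and 46735 to 61472 in ATG7. Choroid plexus holds vessels of its own. The part of blood cells and of choroid plexus in the endothelial values was not tested.

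Further genes of the same cells were taken from longer lists. Of 30 other endothelial genes 0 were called and 23 were higher in ATG7, with a median log2 fold change of 0.14 and Cd93 as the gene of smallest p (0.37, adjusted p = 0.497 by edgeR). ATG7 3 was the highest library for 22 of these 30, and the lowest was EYFP 4 for 18 and ATG7 2 for 12. Of 20 other mural genes 0 were called and 6 were higher, where 9 of the 11 members were, with a median of -0.10 and Itga7, an integrin of smooth muscle, as the gene of smallest p (-0.33, adjusted p = 0.264). Of 33 vascular ligands, co-receptors and downstream partners 0 were called, with a median of 0.00, and the smallest p was that of Fzd4, the endothelial receptor for norrin, which other cells carry too (-0.35, adjusted p = 0.156).

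The tested genes of vessel wall inflammation numbered 16, of which Ch25h, the cholesterol 25-hydroxylase that macrophages also express, was called. It was at 2.16, 1.72, 1.48 and 2.26 CPM in EYFP and at 5.39, 7.08 and 4.66 in ATG7 (log2 fold change 1.59, SE 0.21, adjusted p = 0.00982 by edgeR). Of 8 arterial genes 0 were called and 6 were lower, with a median of -0.19. Of 9 fibroblast markers 0 were called and 6 were lower, with a median of -0.22, a summed level of 115 to 144 CPM in EYFP and 93.1 to 126 in ATG7, and Lama1 as the gene of smallest p (-0.62, adjusted p = 0.280 by edgeR). Their part in the arterial values was not tested. Among the arterial genes the smallest p was that of Mgp, the matrix Gla protein of arteries and fibroblasts, at 22.4, 21.3, 22.9 and 29.9 CPM in EYFP and 17.2, 13.6 and 15.6 in ATG7 (-0.64, SE 0.13, adjusted p = 0.0523 by edgeR). Its groups did not overlap. Gkn3, an arterial endothelial gene in mice named here after its values were seen, was at 14.7, 15.6, 10.9 and 8.31 CPM in EYFP and 6.57, 7.09 and 4.02 in ATG7, also without overlap, as for 11.2% of all genes (-1.07, SE 0.25, adjusted p = 0.108 by edgeR). Of 6 venous genes 0 were called, and Ackr1, the chemokine receptor of venules, had the smallest p (1.32, adjusted p = 0.346). The mean log2 CPM of the arterial list was 3.33 ± 0.22 in EYFP and 3.08 ± 0.20 in ATG7, while that of the 20 endothelial members was 5.69 and 5.90. The 2 differences have opposite signs, and the difference between them was not tested.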

How the data were processed

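Libraries of 7 samples (4 EYFP, 3 ATG7) were made with a VAHTS mRNA-seq kit, per the labels' protocols. The authors deposited raw read counts per Ensembl gene; the submitters' processing notes name fastp 0.20.1, HISAT2 2.0.5, featureCounts and the builds mm10 and GRCm38, and settings, annotation and strand are not given in the sources used here. Without strand, reads of overlapping antisense genes (Notch3, Abcc9, Cdh5, Slc2a1 and Tagln have such partners) cannot be told apart. Symbols came from GENCODE M21; 260 of 55401 identifiers had none. Counts were tested with edgeR 4.0.16 in R 4.3.3 (TMM, filterByExpr, robust quasi-likelihood, Benjamini-Hochberg over 19199 genes, two-sided), after a check on simulated data. CPM are TMM-scaled; log2 CPM used a prior count of 2. The labels do not say whether replicates came from separate mice, so p-values measure the spread between these samples. No 2 libraries of a group were alike within sampling noise (chi-square per degree of freedom 20.3 to 44.3). The members and lists were chosen with earlier results of these data known. All members are described, the 5 of smallest p in full, and of other lists the called genes or the gene of smallest p. Shared 50-base stretches were counted over GENCODE M21 transcripts. Alternatives used DESeq2 1.42.0, limma 3.58.1, other scalings, no filter, a replicate block and leaving out each library. A second, longer list of interferon-responsive genes was fitted and is not reported here.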

Additional observations from a re-analysis of the deposited data

Results flagged for a closer look

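In 33 values tested among the 4 EYFP libraries, 2 had a library far from the others, where chance gives about 1.65. Ly6a was at 33.1 CPM in EYFP 4 and at 52.7 to 55.1 CPM in the other EYFP libraries. Erg was at 8.19 CPM in EYFP 4 and at 13.8 to 14.9 CPM in the others. EYFP 4 was also the lowest library for 16 of 20 endothelial genes.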

How the results depend on the processing

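In every alternative 0 of 31 members were called. The number of genes called over all moved from 145 to 297 with no filter on low counts (234 higher, 63 lower), to 572 with DESeq2 (404 higher, 168 lower) and to 0 with a replicate block, and ran from 28 to 277 when 1 library at a time was left out (277 without EYFP 1, 209 higher and 68 lower; 94 without EYFP 2; 30 without EYFP 4; 28 without ATG7 2; 30 without ATG7 3). The main test had 132 higher and 13 lower. The labels do not say that replicate numbers mark pairs. Same-numbered libraries had deviations that correlated at -0.0609, -0.182 and 0.0664, and different-numbered ones at -0.145 to 0.215. So few values cannot settle whether the samples were paired. EYFP 4 has no partner and adds nothing to the blocked contrast. With the replicate block, log2 fold changes turned sign for Slc2a1 (-0.10), Mfsd2a (-0.000711), Ly6c1 (-0.12), Erg (-0.0422), Pdgfrb (-0.0424), Rgs5 (-0.16), Abcc9 (-0.0795), Vtn (-0.0710), Cspg4 (-0.0925), Higd1b (-0.0591) and Acta2 (-0.0247). Elsewhere the sign turned for Slc2a1 with DESeq2 size factors (-0.00163), with library size alone (-0.0168) and with the DESeq2 test (-0.000958), for Cspg4 (-0.0116) and Acta2 (-0.00745) with library size alone, and for Sox17 (0.0123) and Kcnj8 (0.0630) with limma-voom. With 1 library at a time left out, the log2 fold change crossed 0 for 19 members, running from -0.0999 to 0.33 for Pecam1, -0.0184 to 0.40 for Tie1, -0.27 to 0.0843 for Slco1a4, -0.12 to 0.15 for Slc2a1, -0.00566 to 0.47 for Abcb1a, -0.10 to 0.41 for Mfsd2a, -0.0628 to 0.35 for Ly6c1, -0.17 to 0.54 for Emcn, -0.0271 to 0.36 for Erg, -0.16 to 0.19 for Sox17, -0.0411 to 0.24 for Pdgfrb, -0.16 to 0.15 for Rgs5, -0.35 to 0.11 for Kcnj8, -0.0508 to 0.39 for Abcc9, -0.11 to 0.25 for Vtn, -0.12 to 0.13 for Cspg4, -0.0706 to 0.25 for Higd1b, -0.0939 to 0.11 for Acta2 and -0.0519 to 0.84 for Tagln. The cause of these changes was not tested. The other 12 members kept their direction in all 13 alternatives, with Kdr from 0.21 to 0.60, Ly6a from 0.35 to 0.76, Eng from 0.15 to 0.28 and Anpep from 0.30 to 0.48. The difference in mean endothelial log2 CPM ran from 0.02 to 0.45 when single libraries were left out. Tagln had the lowest counts of the members, at 5 to 32 a library.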
